A study of Homo sapiens with 8 samples.

Results

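Footprints of 35 genes of cholesterol and fatty acid synthesis were followed by ribosome profiling (Ribo-seq) of the ovarian cancer cell line OVCAR3. The genes share a function, and the set was drawn up with earlier results of these data known. They comprise 20 enzymes of sterol synthesis, 5 regulators, 3 genes of sterol transport and 7 genes of fatty acid synthesis. The regulators are the genes of the SREBP transcription factors (SREBF1 and SREBF2) and of proteins that control them (SCAP, INSIG1 and INSIG2). Each was found by matching the transcripts of the 20165 gene regions in the files to gene symbols, and each of the 35 regions carries a single symbol.

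The 8 libraries form 4 groups of 2. The siRNA experiment knocked down OARD1, the gene for the ADP-ribose hydrolase TARG1, in OVCAR3 cells (siTARG1), and its controls received a control oligonucleotide (siControl), both at 30 nM. Cells of the RACK1 experiment carried a doxycycline-inducible shRNA against RACK1, a protein of the small ribosomal subunit, and an inducible HA-tagged RACK1 that was wild type (RACK1-WT) or mutated at its sites of mono-ADP-ribosylation (RACK1-Mut). Both groups of that experiment received 1 µg/ml doxycycline, and whether the transduced lines were pools or single clones is not stated in the sources used here. All cells were harvested after 48 h. The comparisons ask how ribosome occupancy differs when a hydrolase of mono-ADP-ribose is depleted, and when RACK1 lacks its modified residues.

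Cholesterol is built from acetyl-CoA through mevalonate and the isoprenoids to squalene, and squalene is then closed into lanosterol and trimmed to cholesterol. Fatty acids start from the same acetyl-CoA, which is carboxylated, assembled into palmitate, elongated and desaturated. Most enzymes of both routes are transcriptional targets of the SREBPs. SCAP escorts the SREBPs out of the endoplasmic reticulum when membrane sterol is low, and the INSIG proteins hold SCAP back when it is high.

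Footprints on coding sequences numbered 3100947 to 6604190 per library, and the 35 genes took 0.540% to 0.685% of them. OARD1 itself had 121 and 69.1 normalized counts in siControl cells and 5.83 and 6.75 in siTARG1 cells, as its label requires. RACK1 had 23334 and 23594 in RACK1-WT cells and 17745 and 17274 in RACK1-Mut cells, where the cell's own and the re-expressed mRNA cannot be told apart. Its log2 fold change was -0.42 (SE 0.0601, DESeq2 adjusted p 1.34e-08). The RACK1 groups thus differ in RACK1 footprints as well as in the mutated residues, and these cannot be told apart as sources of a difference. All 9 epithelial markers of ovarian carcinoma were detected, among them PAX8, EPCAM and MUC16. Their summed level, as CPM of coding footprints, was 12120 to 12368 in siControl, 8302 to 9494 in siTARG1, 11466 to 11560 in RACK1-WT and 11582 to 11854 in RACK1-Mut cells. In siTARG1 cells 2 of the 9 were called higher and 2 lower, by the test described below. The 9 did not move together, with 5 positive and 4 negative log2 fold changes and a median of 0.03. KRT8 had 13929 and 10551 raw counts in siControl and 6750 and 5805 in siTARG1 libraries, and CDH1 had 869 and 670 against 2869 and 2206. The 5 fibroblast markers summed to 25.7 to 41.5 CPM and the 4 immune markers to 1.43 to 8.42. The 2 endothelial markers summed to 0.636 to 2.85 CPM, the 3 of fat to 0 to 0.238 and the 3 of liver to 0 to 0.324. The markers CD3E and LYZ of immune cells, CDH5 of endothelium, ADIPOQ and FABP4 of fat and TTR of liver had 0 counts in every library. Of the others on these 4 lists, CD14 (up to 50 counts) and VWF (up to 15) were counted in every library. PTPRC, PLIN1, ALB and APOA1 had at most 2 counts in any library. The lower epithelial sum in siTARG1 cells runs beside all siTARG1 results that follow, and its part in them was not tested. A footprint count follows both the amount of an mRNA and its translation, and in bulk samples fewer cells of a type and less RNA per cell cannot be told apart.

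Levels were compared between genes as RPKM, recomputed from the coding counts so that both the length of the coding sequence and the library total are taken into account. On this scale SCD, the stearoyl-CoA desaturase, had the highest mean of the 35 in each of the 4 groups, from 693 ± 3.54 in siControl to 1207 ± 53.5 in RACK1-Mut cells (SD, n = 2). In siTARG1 cells it had 779 ± 47.7, within the spread of NPC2. The level of NPC2, a lysosomal cholesterol carrier, was 487 ± 77.2 in siControl and 770.3 ± 30.3 in siTARG1 cells. Among the enzymes of sterol synthesis, FDPS (369 ± 19.1 in siControl) and FDFT1 (264 ± 10.9) led. HSD17B7 (13.3 ± 0.165), INSIG2 (12.6 ± 0.990) and GGPS1 (11.8 ± 5.09) were at the low end in siControl cells, and these neighbours do not differ beyond the spread between libraries. FASN, the multidomain fatty acid synthase, had more footprints than any other member in siControl cells but a level of only 125 ± 6.49, since its coding sequence is long.

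**Figure D1:**
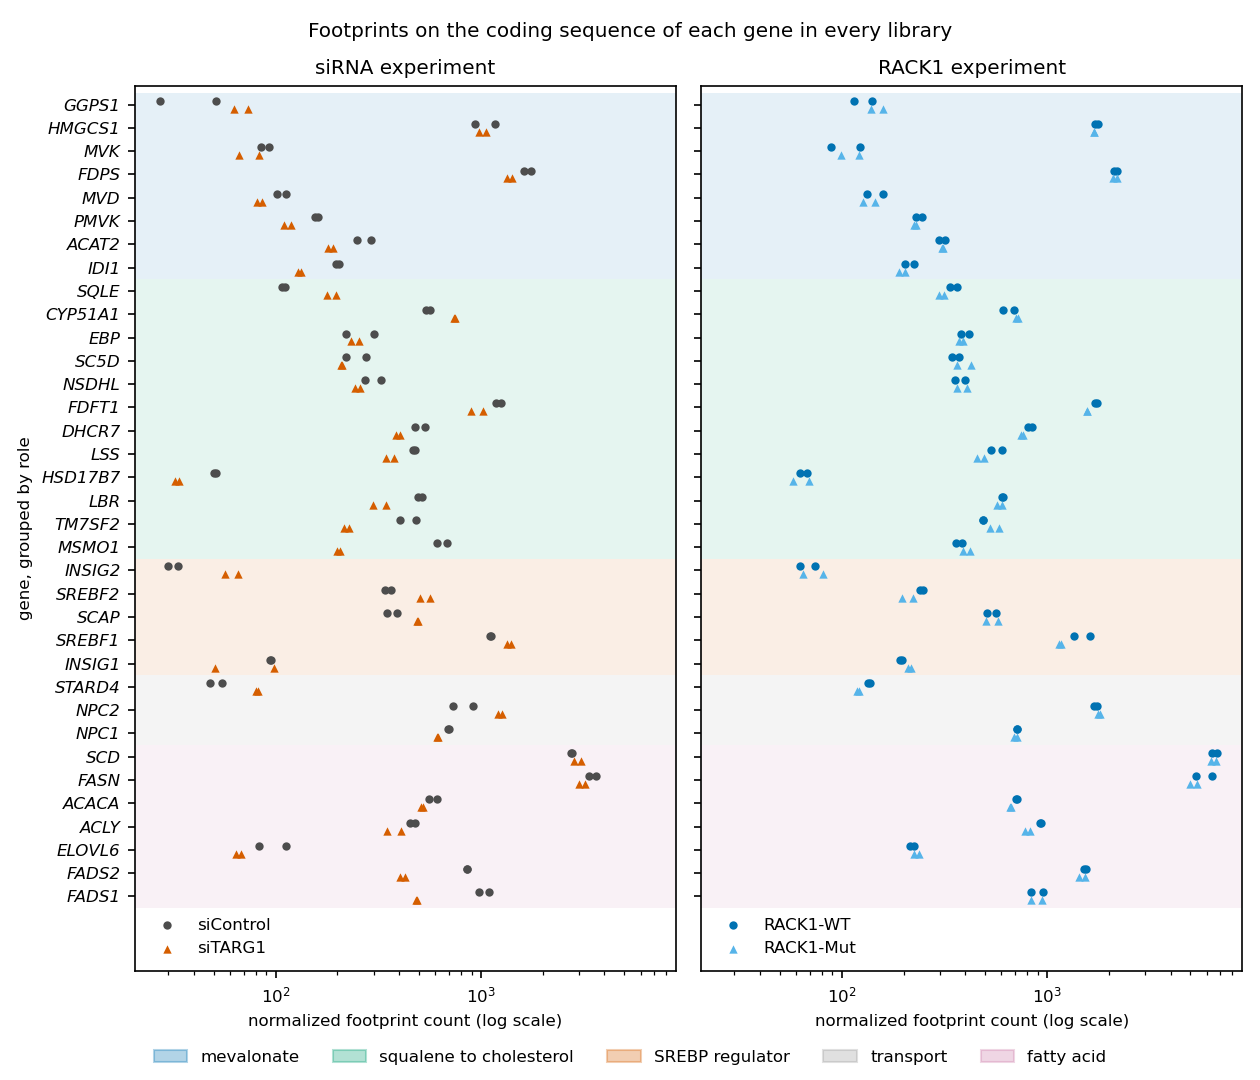
Normalized footprint counts (log axis) of the 35 genes in each of the 4 libraries of the siRNA experiment (left) and of the RACK1 experiment (right). Each symbol is 1 library, shading marks the role of the gene, and counts were scaled separately in the 2 experiments. MSMO1, FADS1 and FADS2 show the widest gaps between siControl (609 and 682 for MSMO1) and siTARG1 libraries (200 and 206), while RACK1-WT and RACK1-Mut symbols lie close together.

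Between siTARG1 and siControl cells the footprints of 16 of the 35 genes differed by DESeq2 at an adjusted p under 0.05, 6 of them higher and 10 lower in siTARG1 cells. That is 45.7% of the genes, against 16.4% of all 12056 genes tested (7.18% higher and 9.19% lower). Among the more abundant genes, those whose normalized counts average 100 or more, the shares were 59.3% (16 of 27) and 25.0%. For 32 of the 35 genes (91.4%) siControl and siTARG1 values did not overlap, against 62.6% of all genes. With edgeR, 22 of the 35 were called, against 28.8% of all genes. The 4 genes MSMO1, FADS1, FADS2 and TM7SF2 were also called in each of the 4 fits that left out 1 library. Of the other called genes, NPC2 was called in 3 of those fits, LBR and SREBF2 in 2, and the remaining 9 in 0. The count of calls was 4 without siControl replicate 1, 7 without siControl replicate 2, and 6 without either siTARG1 library.

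The changes were not alike across the pathway. Of the sterol enzymes 8 of 20 were called lower and 2 higher, and 17 of 20 had a negative value (median log2 fold change -0.35). Of the regulators 3 of 5 were called higher and 0 lower (median 0.41), and of the transport genes 1 of 3 was called higher and 0 lower (median 0.59). Of the fatty acid genes 2 of 7 were called, both lower, with a median of -0.29. The median over all genes tested was 0.00. Sterol and fatty acid genes thus had medians of the same sign. With 1 library left out the sterol median ran from -0.41 to -0.28 and the fatty acid median from -0.40 to -0.21. The sterol median was -0.28 without siTARG1 replicate 2 and the fatty acid median was -0.40 without that same library.

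**Figure D2:**
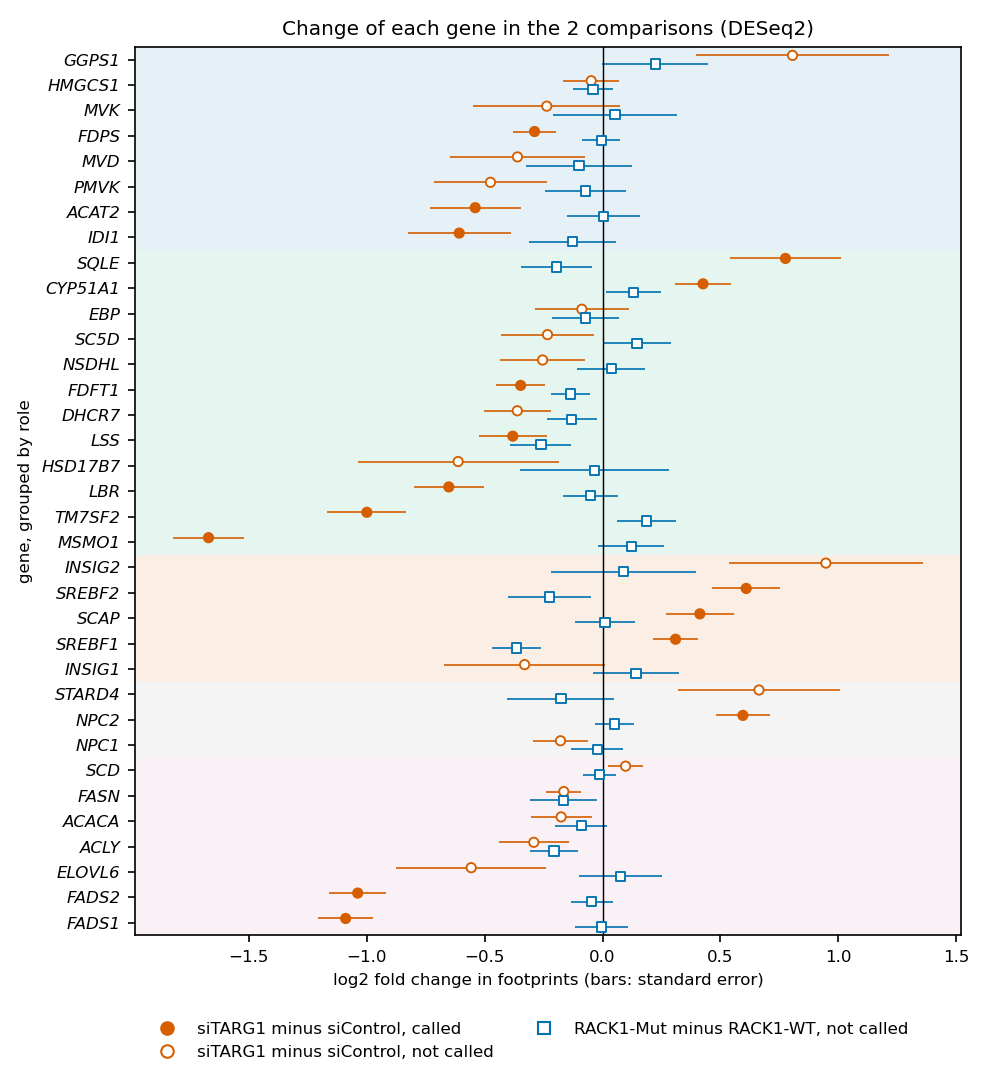
Log2 fold change of each of the 35 genes with its standard error (horizontal bars), for siTARG1 minus siControl (circles, filled where DESeq2 called the gene) and RACK1-Mut minus RACK1-WT (squares, 0 called). Shading groups the genes by role as in the plot of counts. Circles of the sterol enzymes lie mainly left of 0, those of SREBF1, SREBF2 and SCAP lie right of 0, and squares stay between -0.37 and 0.22.

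In the mevalonate arm, 3 of 8 enzymes (37.5%) were called, all lower, against 16.4% of all genes tested, and 7 of 8 values were negative. ACAT2, the thiolase that joins acetyl-CoA units at the start of the route (chromosome 6, 160183077 to 160200144, plus strand, GRCh37 here and below), gave 249 and 291 normalized counts in siControl libraries against 181 and 190.05 in siTARG1 libraries. Its groups did not overlap, and the log2 fold change was -0.54 (SE 0.193, DESeq2 adjusted p 0.0333). IDI1, the isopentenyl diphosphate isomerase (chromosome 10, 1085092 to 1095059, minus strand), had 196 and 203 against 129 and 133, a change of -0.61 (SE 0.219, adjusted p 0.0351). FDPS, which condenses isoprenoids to farnesyl diphosphate (chromosome 1, 155278539 to 155290457, plus strand), had 1629 and 1752 against 1422 and 1343, a change of -0.29 (SE 0.0898, adjusted p 0.0115). All 3 genes were thus lower in both siTARG1 libraries, to 65.7% to 81.8% of the siControl mean. FDPS and IDI1 have 8 and 3 pseudogenes named after them in the annotation. Their counts are thus less certain than those of genes without such copies. Of the annotated coding bases of FDPS 38.9% lie opposite exons of RUSC1-AS1. For ACAT2 and IDI1, 18.7% and 17.5% lie opposite exons of other genes. Strand use in counting is not stated, so these overlaps make the counts of all 3 less certain too.

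HMGCS1, the HMG-CoA synthase that commits acetyl units to mevalonate (chromosome 5, 43287572 to 43313614, minus strand), did not follow them. Its 939 and 1174 normalized counts in siControl and 1056 and 981 in siTARG1 libraries overlap, with a change of -0.05 (SE 0.117, adjusted p 0.849). Its sign depended on single libraries, at 0.12 without siControl replicate 2 and 0.01 without siTARG1 replicate 2. MVK, PMVK and MVD, the kinases and decarboxylase between mevalonate and isopentenyl diphosphate, had values of -0.24, -0.47 and -0.36 and were not called by DESeq2, while edgeR called PMVK (adjusted p 0.0277). GGPS1, which makes geranylgeranyl diphosphate for a branch that leads away from cholesterol, was the one positive value of the arm, at 0.81 (SE 0.410, adjusted p 0.178). It was called by edgeR (adjusted p 0.0294), with exon counts (0.0420) and in the fit of all 8 libraries (0.0386), and 53.0% of its coding bases are shared with a readthrough gene on the same strand.

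The largest fall among the 35 was in MSMO1, the methylsterol oxidase that takes part in removing methyl groups from lanosterol's derivatives (chromosome 4, 166248819 to 166264316, plus strand). It had 609 and 682 normalized counts in siControl and 200 and 206 in siTARG1 libraries, and the groups lay far apart. This left 31.4% of the siControl mean (log2 fold change -1.67, SE 0.152, adjusted p 1.15e-25). TM7SF2, a sterol reductase of the endoplasmic reticulum (chromosome 11, 64879317 to 64883856, plus strand), went from 405 and 483 to 216 and 228, a change of -0.999 (SE 0.168, adjusted p 9.69e-08). LBR, the lamin B receptor, which performs the same reduction and anchors the nuclear lamina (chromosome 1, 225589204 to 225616627, minus strand), went from 518 and 491 to 343 and 298. Its change was -0.65 (SE 0.149, adjusted p 0.000213), so both reductases of this step were lower.

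FDFT1 and LSS, at the entrance to the sterol branch, fell less. FDFT1, the squalene synthase (chromosome 8, 11653082 to 11696904, plus strand), had 1188 and 1259 normalized counts in siControl and 1027 and 892 in siTARG1 libraries, a change of -0.35 (SE 0.105, adjusted p 0.00888). LSS, which closes squalene epoxide into lanosterol (chromosome 21, 47608055 to 47648738, minus strand), had 466 and 476 against 379 and 343. Its change of -0.38 (SE 0.145) had an adjusted p of 0.04998, just inside the threshold, and of 0.0599 without a filter on low counts. Of the annotated coding bases of LSS 14.7% lie opposite exons of other genes.

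SQLE and CYP51A1 went the other way. SQLE, the squalene epoxidase and a slow step of the branch (chromosome 8, 126010739 to 126034525, plus strand), had 111 and 107 normalized counts in siControl and 177 and 197 in siTARG1 libraries. It rose by 0.78 on the log2 scale (SE 0.234, adjusted p 0.00832), or 1.71-fold. CYP51A1, the lanosterol demethylase (chromosome 7, 91714301 to 91764117, minus strand), had 562 and 541 against 746 and 737, a rise of 0.43 (SE 0.119, adjusted p 0.00373). Of its coding bases 86.1% are shared with readthrough genes on the same strand, and 3 pseudogenes are named after it. NSDHL, HSD17B7, EBP, SC5D and DHCR7, which finish the side steps and the last reductions to cholesterol, had values of -0.61 to -0.09 and were not called by DESeq2. The nearest to the threshold was DHCR7 (-0.36, SE 0.142, adjusted p 0.0583), which edgeR (adjusted p 0.00569) and the DESeq2 fit of all 8 libraries (adjusted p 0.00958) called. EBP turned positive (0.15) without siControl replicate 2, and 68.0% of its coding bases are shared with another gene on the same strand.

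Regulators of the pathway were higher where they were called. SREBF2, which encodes the SREBP that chiefly drives sterol genes (chromosome 22, 42229109 to 42303310, plus strand), had 341 and 366 normalized counts in siControl and 568 and 507 in siTARG1 libraries. It rose by 0.61 (SE 0.144, adjusted p 0.000374), or 1.53-fold. The region counted for SREBF2 holds 1965 coding bases, against 3721 annotated over all isoforms. SREBF1, whose protein chiefly drives fatty acid genes (chromosome 17, 17713713 to 17740316, minus strand), counted 1104 and 1113 against 1408 and 1337, a rise of 0.31 (SE 0.0936, adjusted p 0.00858). SCAP (chromosome 3, 47455171 to 47518616, minus strand) had 348 and 391 against 495 and 486, a rise of 0.41 (SE 0.144, adjusted p 0.0281). In none of the 3 genes did the groups overlap, which also held for 62.6% of all genes tested. The call of SCAP was lost after thinning to the same depth (adjusted p 0.0633). A DESeq2 fit with the replicate number as a block lost the calls of SREBF1 (adjusted p 0.0789) and SCAP (adjusted p 0.140). It kept that of SREBF2 (adjusted p 0.0119). Footprints of the SREBF genes thus rose while those of most sterol enzymes did not.

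INSIG1, itself a sensitive SREBP target (chromosome 7, 155089486 to 155101945, plus strand), had 94.9 and 94.2 normalized counts in siControl and 98.2 and 50.6 in siTARG1 libraries. The siTARG1 libraries disagreed, so that the change of -0.33 (SE 0.341, adjusted p 0.589) was -0.90 without siTARG1 replicate 1 and 0.06 without siTARG1 replicate 2. INSIG2 (0.95, SE 0.413, adjusted p 0.0998) had 31.6 ± 2.47 and 60.9 ± 6.10 normalized counts and was not called by DESeq2, although edgeR (adjusted p 0.0113) and the DESeq2 fit of all 8 libraries (adjusted p 0.0270) called it.

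Of the transport genes, NPC2 (chromosome 14, 74942895 to 74960880, minus strand) stood at 729 and 913 normalized counts in siControl and 1264 and 1208 in siTARG1 libraries, a rise of 0.59 (SE 0.116, adjusted p 7.76e-06). Without siControl replicate 1 the value was 0.43 and the adjusted p 0.0662. NPC1, its partner in the lysosomal membrane, had -0.18 (SE 0.118), and STARD4, a cytosolic sterol carrier, 0.66 (SE 0.343), and DESeq2 called neither. STARD4 was called by edgeR (adjusted p 0.0327).

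In the fatty acid arm DESeq2 called 2 of 7 genes (28.6%), against 16.4% of all genes tested. These were FADS1 and FADS2, the desaturases of polyunsaturated fatty acids. FADS1 (chromosome 11, 61567099 to 61596790, minus strand) stood at 976 and 1093 normalized counts in siControl and 489 and 482 in siTARG1 libraries, a fall to 46.9% of the siControl mean. Its log2 fold change was -1.09 (SE 0.117, adjusted p 2.71e-18). FADS2 (chromosome 11, 61560452 to 61634826, plus strand) had 857 and 852 against 427 and 405, a fall to 48.7% with a change of -1.04 (SE 0.122, adjusted p 1.65e-15). The genes are neighbours on opposite strands, and over all annotated isoforms 24.7% of the coding bases of FADS2 and 8.3% of those of FADS1 lie opposite exons of the other. Whether the authors' counting used strand is not stated in the sources used here.

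Enzymes that make and first desaturate palmitate and stearate were not called. For FASN (chromosome 17, 80036214 to 80056170, minus strand) the normalized counts were 3623 and 3365 in siControl and 3218 and 3019 in siTARG1 libraries, with a change of -0.16 (SE 0.0750, adjusted p 0.123). SCD (chromosome 10, 102106990 to 102124583, plus strand) had 2759 and 2777 against 3074 and 2846, with a change of 0.10 (SE 0.0752, adjusted p 0.431). ACLY, which supplies acetyl-CoA from citrate, ACACA, the acetyl-CoA carboxylase, and ELOVL6, the elongase of palmitate, had -0.29, -0.18 and -0.56. Of the 3, edgeR called ACLY (adjusted p 0.0323).

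Summed over genes, the 20 sterol enzymes took 0.241% ± 0.0144 of coding footprints in siControl and 0.204% ± 0.00828 in siTARG1 cells (SD, n = 2), and the 7 fatty acid genes 0.251% ± 0.00221 and 0.226% ± 0.00977. In RACK1-WT and RACK1-Mut cells the sterol share was 0.233% ± 0.00121 and 0.232% ± 0.00562, and the fatty acid share 0.329% ± 0.0253 and 0.316% ± 0.00278. FASN and SCD together made up 66.5% to 68.2% of fatty acid footprints in siControl libraries and 75.8% to 77.2% in siTARG1 libraries. Their part of the arm was thus larger in siTARG1 cells, in which FADS1 and FADS2 were lower. The experiments used different lines and treatments, which cannot be told apart as sources of the gap between them.

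**Figure D3:**
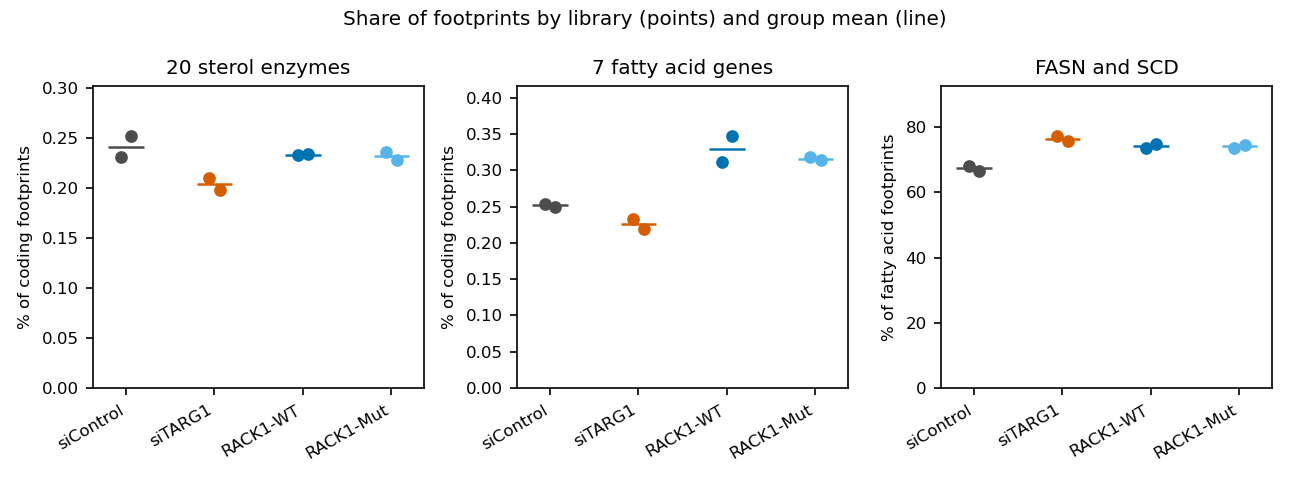
Share of coding footprints on the 20 sterol enzymes (left) and on the 7 fatty acid genes (middle), and the share of fatty acid footprints on FASN and SCD (right), in percent. Points are libraries and lines are means of 2. Both siTARG1 libraries lie below both siControl libraries in the left and middle panels and above them in the right panel (75.8% to 77.2% against 66.5% to 68.2%), and RACK1-Mut points lie near those of RACK1-WT.

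In RACK1-Mut cells 0 of the 35 genes were called by DESeq2, against 0.0799% of the 12520 genes tested. An unadjusted p under 0.05 was found for 3 genes, SREBF1, LSS and ACLY, all with lower values in RACK1-Mut cells, and for 205 of all 12520 genes, 125 of them lower. The median log2 fold change was -0.04 for the sterol enzymes and -0.05 for the fatty acid genes, against 0.00 over all genes. The values of the groups were separate for 17 of the 35 genes (48.6%), against 37.6% of all genes. Footprints of MSMO1 (387 and 362 in RACK1-WT, 422 and 391 in RACK1-Mut libraries), FADS1 (832 and 957, 946 and 834) and FADS2 (1510 and 1551, 1534 and 1430), the genes with the largest falls in siTARG1 cells, differed by 0.12 (SE 0.140), -0.01 (SE 0.113) and -0.05 (SE 0.0880).

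SREBF1 had the largest value of the 35 in this comparison. Its normalized counts were 1353 and 1625 in RACK1-WT and 1148 and 1164 in RACK1-Mut libraries, which do not overlap. The log2 fold change was -0.37 (SE 0.104, DESeq2 adjusted p 0.383). The call depended on the test and on the libraries fitted. SREBF1 was the 1 call of edgeR among the 35 (adjusted p 0.0116), against 0.24% of all genes. A DESeq2 fit of all 8 libraries also called SREBF1 (adjusted p 0.00949), but gave no adjusted p for 26 of the 35 genes. With 1 library left out the value ran from -0.49 to -0.23. SREBF2 had 240 and 250.02 against 197 and 223, a change of -0.22 (SE 0.177). Over the alternatives that kept every library this value ran from -0.23 to -0.03. HMGCS1 (1775 and 1720 against 1695 and 1703), INSIG1 (196 and 193 against 218 and 211), FASN (5299 and 6343 against 4971 and 5405) and SCD (6380 and 6770 against 6697 and 6325) were not called either.

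The comparisons share no library, and the difference between their fold changes was tested in one DESeq2 fit of all 8 libraries. It was called for 9 of the 35 genes (25.7%), against 12.3% of the 12955 genes tested. The change was more positive in siTARG1 cells for SQLE (0.97, SE 0.240, adjusted p 0.000896), SREBF2 (0.84, SE 0.201, adjusted p 0.000575), SREBF1 (0.68, SE 0.133, adjusted p 1.06e-05) and NPC2 (0.55, SE 0.135, adjusted p 0.000769). More negative there were MSMO1 (-1.78, SE 0.188, adjusted p 5.35e-19), TM7SF2 (-1.18, SE 0.190, adjusted p 3.07e-08), FADS1 (-1.08, SE 0.154, adjusted p 2.36e-10), FADS2 (-0.98, SE 0.130, adjusted p 3.58e-12) and LBR (-0.59, SE 0.169, adjusted p 0.00561). For LBR the call was lost in 4 of the 8 fits without 1 library (siControl replicate 1, siTARG1 replicate 2, RACK1-WT replicate 2 or RACK1-Mut replicate 1, adjusted p 0.0624 to 0.0827). The other 26 genes, HMGCS1, FASN and SCD among them, were not shown to change differently in the comparisons.

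Genes next to the 35 in these pathways, taken from lists written by hand, changed in both directions in siTARG1 cells. Of further sterol genes 3 were called higher and 4 lower out of 21 tested (33.3% called), and of further fatty acid genes 6 higher and 4 lower out of 22 (45.5%), against 16.4% of all genes. Among those with the smallest adjusted p, 5 fell. These were ME1, the malic enzyme that supplies NADPH (-1.54, SE 0.122, adjusted p 1.71e-33), ERLIN2, a scaffold of the endoplasmic reticulum membrane (-2.19, SE 0.180, adjusted p 4.33e-31), ACSS2, which makes acetyl-CoA from acetate (-1.69, SE 0.144, adjusted p 3.34e-29), PGRMC1, a heme protein (-0.75, SE 0.0866, adjusted p 6.60e-16), and SCD5, another stearoyl-CoA desaturase (-0.56, SE 0.123, adjusted p 0.000101). Those that rose were HSD17B12 (0.83, SE 0.115, adjusted p 3.30e-11) and HACD2 (1.17, SE 0.190, adjusted p 3.07e-08), both enzymes of fatty acid elongation. In RACK1-Mut cells 0 of these further genes were called, and 1 had an unadjusted p under 0.05.

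Promoters were searched for the letters of a sterol regulatory element. The windows are RefSeq's, on GRCh38.p14, from 250 bases before to 50 after the start of a gene, and 31 of the 35 genes matched. The core of the element, CACNCCAC on either strand, was in 4 of 31 windows (12.9%), against 5.74% of 27305 windows of the same length. The 4 are shown as 30 bases of the gene's strand, with the core in capitals.
INSIG1 (chr7:155297659-155297688): gcgggccggcgGTGGCGTGtgcgcacgtca
SC5D (chr11:121292773-121292802): tttgcagagcaGTGGCGTGcggagcggcgg
SCD (chr10:100347108-100347137): gcagaggccggGTGGTGTGgtgtcggtgtc
SREBF2 (chr22:41832962-41832991): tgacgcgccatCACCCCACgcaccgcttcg

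The longer form TCACNCCAC, which contains the core, was in 1 of 31 windows (SREBF2), against 1.15% of all. The box CCAAT of the SREBP partner NF-Y was in 18 of 31 windows (58.1%), against 35.7% of all, and in each of the 4 windows with a core. The E-box CANNTG, which can share letters with the others, was in 15 of 31 windows (48.4%), against 68.9% of all. Of the 4 genes shown above, SREBF2 rose in siTARG1 cells, and SCD (0.10), SC5D (-0.23) and INSIG1 (-0.33) were not called. MSMO1 and TM7SF2 had 4 and 1 CCAAT boxes and no core in the window, and FADS1 and FADS2 had none of either. These matches are letters in a window and not measured sites.

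The 3′ UTRs were then searched for 7-mers that an earlier analysis of these data had linked to changed footprints, so that the shares below are a description. Class A holds TGAACAT and GAACATA, and class B holds TGAATAT and GAATATA. Among all genes with an annotated 3′ UTR, class A was in 38.5% of those called lower in siTARG1 cells and class B in 48.9% of those called higher, while 17.8% and 24.1% of genes not called held them. Of the 10 members called lower, 0 carried class A and 0 carried class B. Of the 6 called higher, SQLE and CYP51A1 carried class B, and SREBF1, SREBF2, SCAP and NPC2 neither. Sites on GRCh37 are shown for 4 class B and 2 class A carriers, with the letters that match a 7-mer in capitals. In HMGCS1 both class B 7-mers overlap.
CYP51A1 (chr7:91742948-91742967, class B): aggaacGAATATAtgtgatt
INSIG2 (chr2:118867371-118867390, class B): tcatatTGAATATgtgtaca
STARD4 (chr5:110832871-110832890, class B): atgaaaGAATATAatctgcc
HMGCS1 (chr5:43290488-43290507, class B): gagctgTGAATATAgctcta
INSIG1 (chr7:155101847-155101866, class A): cagattTGAACATctagtga
ELOVL6 (chr4:110967764-110967783, class A): tttgaaGAACATAcacaaac

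The 5 genes with class B and not class A (CYP51A1, HMGCS1, INSIG2, SQLE and STARD4) had a median log2 fold change of 0.66 in siTARG1 cells, against 0.22 for all 1953 genes of that class. HMGCS1, whose match begins 732 bases into the 3′ UTR, was the lowest of them at -0.05, and the sites of CYP51A1 and SQLE begin 18 and 25 bases into it. ELOVL6 and INSIG1, with class A, had a median of -0.44, against -0.22 for all genes of the class. SC5D carried both. The 27 genes with neither 7-mer had a median of -0.29, against 0.00 for all 7557 such genes. MSMO1, FADS1, FADS2 and TM7SF2 are among them, and what part the 7-mers have in any of these changes was not tested. In RACK1-Mut cells the medians of the same classes were -0.05 (neither), 0.11 (class A) and -0.04 (class B).

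**Figure D4:**
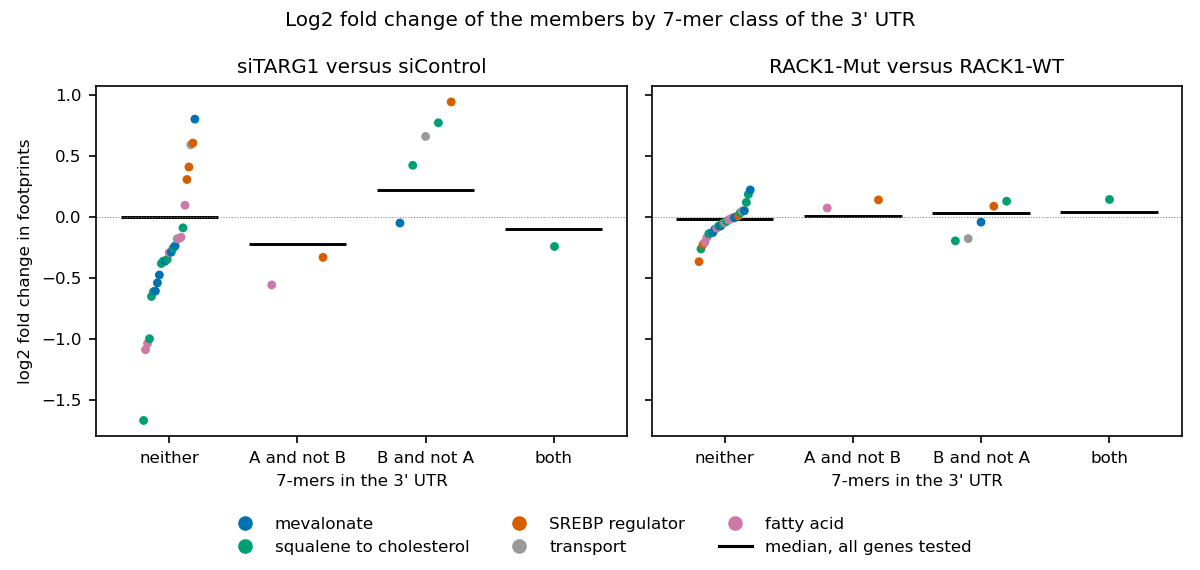
Log2 fold change of the 35 genes by the 7-mers in their 3′ UTRs (neither class, A, B or both) in siTARG1 versus siControl (left) and RACK1-Mut versus RACK1-WT (right). Points are genes coloured by role, spread sideways only to separate them, and black lines are medians over all genes tested of that class. On the left 4 of 5 class B genes lie above the line at 0.22 and most genes of the neither class lie below 0, and on the right all points lie within -0.37 to 0.22.

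Footprints outside the coding sequence were not used by the main fold changes, but a pooled share weights each gene by its footprints. Of the footprints on the sterol enzymes 1.55% to 2.71% fell in the 5′ UTR in the 8 libraries, and of those on the fatty acid genes 1.06% to 1.93%, against 3.85% to 4.34% over all gene regions. For the fatty acid genes the share was 1.17% and 1.06% in siControl and 1.68% and 1.44% in siTARG1 libraries. SCD held 102 of these 126 5′ UTR footprints in siControl replicate 1 and 147 of 168 in siTARG1 replicate 1. FADS1 and FADS2, with few or none, were lower in siTARG1 cells, so this pooled share also follows the mix of genes. For SCD alone the share was 3.13% and 2.71% in siControl and 3.81% and 3.30% in siTARG1 libraries. The regulators had 3.44% to 5.55%. SCAP held 57 of their 79 5′ UTR footprints in siControl replicate 1 and 159 of 181 in RACK1-WT replicate 1. SREBF1 alone had 0.113% to 0.868% over the libraries. The 3′ UTR share was 0.178% to 0.477% for sterol enzymes and 0.239% to 0.342% for fatty acid genes, against 0.666% to 1.87% over all regions.

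Single genes stood well above these pooled shares. SCAP had 12.3% to 13.3% of its footprints in the 5′ UTR in the siRNA experiment, 19.4% and 16.8% in RACK1-WT and 14.7% and 11.3% in RACK1-Mut libraries. INSIG2 had 8.93% to 12.5% and SQLE 4.37% to 10.8%. GGPS1 had 19.4% to 35.8% in 7 libraries and 2.27% in siControl replicate 2, where it rests on 1 of 44 footprints (95% Wilson interval 0.402% to 11.8%, for counting error only). FASN had 0.0242% to 0.141%.

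**Figure D5:**
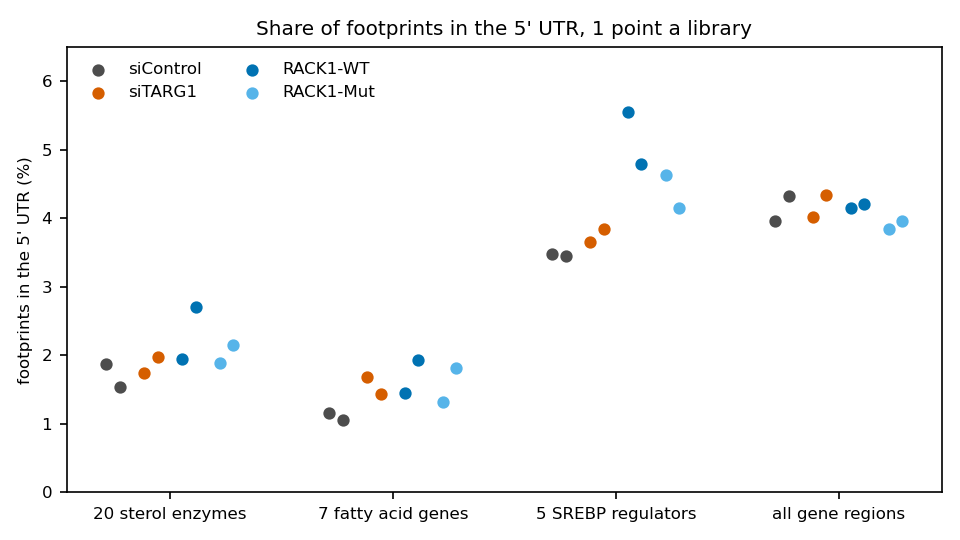
Percent of footprints that fall in the 5′ UTR, pooled over the 20 sterol enzymes, the 7 fatty acid genes, the 5 SREBP regulators and all gene regions. Each point is 1 library, coloured by group. Sterol enzymes (1.55% to 2.71%) and fatty acid genes (1.06% to 1.93%) lie below all gene regions (3.85% to 4.34%) in every library.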

How the data were processed

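Ribosome footprints of 8 OVCAR3 libraries were analysed. Per the labels, footprints were made by RNase I digestion and a sucrose cushion. In the authors' methods, reads of rRNA were removed with Bowtie 1.1.2 and the rest aligned to transcripts with TopHat2 2.1.1, with many hits per read allowed, so genes with pseudogenes are uncertain. The deposited values are whole-number counts made by the authors with Plastid on GRCh37 and GENCODE 24. Per the file headers, reads of 26 to 36 nt were placed by an offset of 14 nt counted from their 5′ end. The methods count it from the 3′ end, and this was not resolved. Collapse of reads by molecular identifier is not stated. The authors' RPKM columns were not used. RNA-seq was not analysed here, so changes are of footprint abundance.

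Counts on coding sequences were named through GENCODE 44 on GRCh37 (19612 of 20165 regions; 553 without a symbol). DESeq2 1.42.0 (Wald test, R 4.3.3) was fitted to the 4 libraries of each comparison, with genes of at least 10 summed counts, and all genes were adjusted together by Benjamini-Hochberg. All 35 genes passed the filter. Called means an adjusted p under 0.05. Tests were tried on simulated data. The authors' methods state that sequencing experiments were repeated with independent biological samples. The labels do not say whether the replicates of a group are separate cultures. The p-values thus measure the spread between these libraries, and how much of it is technical is not known. Alternatives were edgeR 4.0.16 (quasi-likelihood, TMM), TMM in DESeq2, no filter or 10 counts in every library, exon counts, the replicate number as a block, 1 fit of all 8 libraries, thinning to the same total, and leaving out each library. The leave-out fits of the difference and the background of genes with a mean of at least 100 were chosen after seeing the data. The 35 genes, the lists and the 7-mers were chosen with earlier results of these data known. All 35 genes are named. Values in every library are given for those called with a mean of at least 20 and for SREBF1, SREBF2, INSIG1, HMGCS1, FASN and SCD, and of further pathway genes the 8 with the smallest adjusted p were chosen, 1 of which is not reported here.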

Additional observations from a re-analysis of the deposited data

How the results depend on the processing

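With 2 libraries per group, single libraries weighed on most calls. Gene by gene, same-numbered libraries did not deviate together (correlation of deviations 0.031 in the siRNA and 0.083 in the RACK1 experiment). The labels do not say whether same-numbered libraries were handled together, and a low correlation cannot show that they were not. In the siRNA experiment coding footprints numbered 4207939 and 4207861 in replicate 1 libraries and 3100947 and 3145173 in replicate 2 libraries. The fit with the replicate number as a block called 8 of the 35 genes in siTARG1 cells in place of 16, all 8 among the 16. The calls lost were those of ACAT2, IDI1, FDPS, FDFT1, SQLE, LSS, SREBF1 and SCAP. For the difference between the comparisons the block gave 8 calls in place of 9, LBR being the one lost (adjusted p 0.0580), and in RACK1-Mut cells 0 as before. Leaving out 1 library gave 4 to 7 calls in siTARG1 cells, 8 to 9 for the difference and 0 in RACK1-Mut cells. In those fits the lone library was assumed to vary like the others. Medians then ran from -0.408 to -0.276 (sterol) and -0.398 to -0.21 (fatty acid) in siTARG1 cells, and from -0.0412 to -0.0115 and -0.0986 to 0.00465 in RACK1-Mut cells.

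In RACK1-Mut cells edgeR gave 1 call and the fit of all 8 libraries 1, SREBF1 in both. DESeq2 gave no adjusted p for 26 of the 35 genes in that fit, for 9 after thinning and for 2 without RACK1-WT replicate 1, and these are left out. In siTARG1 cells the remaining alternatives gave 15 to 22 calls, and 0 of 280 values of single genes changed sign. Near-zero values in RACK1-Mut cells did, in SCAP (-0.0777 with exon counts), ACAT2 (-0.000846 in the fit of all 8 libraries), MVK (-0.0494 after thinning) and SCD (0.00157 after thinning). With a library left out, signs changed in siTARG1 cells for HMGCS1 (-0.212 to 0.115), EBP (-0.316 to 0.151) and INSIG1 (-0.900 to 0.0614). In RACK1-Mut cells they changed for ACAT2 (-0.0453 to 0.0578), FADS1 (-0.102 to 0.0978), FADS2 (-0.0986 to 0.00465), FDPS (-0.0439 to 0.0311), HSD17B7 (-0.17 to 0.0866), INSIG2 (-0.0877 to 0.243), MVD (-0.224 to 0.0374), MVK (-0.164 to 0.308), NSDHL (-0.0475 to 0.119), SCAP (-0.0849 to 0.101) and SCD (-0.0572 to 0.0297). None of these was called, and the cause was not tested.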
